A study of Mus musculus with 10 samples.

Results

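The genes described here encode 10 enzymes that release polyunsaturated fatty acids from phospholipid or turn them into prostaglandins and related lipid mediators: Pla2g4a, Pla2g16, Ptgs1, Ptgs2, Ptges, Ptges2, Ptges3, Ptgis, Ephx1 and Ephx2. Members were found as every probe set (a group of array probes read as 1 value) annotated to one of these symbols or to a current or former name of the same gene, Pla2g16 being listed as Plaat3. Of the 10 genes, 9 had a probe set, 14 of 45037 probe sets in all, and 7 were bright enough to be tested among 10916 genes.

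Total RNA came from cultures of 3T3-L1, mouse fibroblasts that become fat cells under differentiation medium and that the labels call adipocytes here, and each sample was read on 1 Affymetrix array. Cultures received c9t11 CLA, an isomer of linoleic acid whose cis-9 and trans-11 double bonds are conjugated, or the control fatty acid LA, a short name that the labels do not spell out and that usually stands for linoleic acid. RNA was taken at 8 h and 12 h, with 4 LA arrays at each time (biological replicates 1 to 4) and 1 CLA array at each time, both numbered replicate 1. A CLA value therefore has no replicate of its own, and every culture comes from a single cell line. No untreated culture was analysed here, so CLA and LA are compared with each other only.

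Prostaglandins are made in steps. A phospholipase A2 frees arachidonic acid from membrane phospholipid, a cyclooxygenase (Ptgs1 or Ptgs2) converts it to prostaglandin H2, and terminal synthases make prostaglandin E2 (Ptges, Ptges2, Ptges3) or prostacyclin (Ptgis) from that. A parallel branch forms fatty acid epoxides, which the epoxide hydrolases Ephx1 and Ephx2 open to diols. In fat tissue prostaglandin E2 acts on lipolysis through its receptors, prostacyclin is known to promote the conversion of fat cell precursors, and Pla2g16 is the abundant phospholipase of mature fat cells.

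The 4 arrays that carry replicate number 1, namely both of CLA and those of LA at 8 h and 12 h, were dimmer than the rest: the 75th percentile of their intensities ran from 26.4 to 39.5, and that of the 6 other LA arrays from 54.4 to 76.8. Marker levels were summed from quantile-normalized intensities raised to a floor, a scaling that gives every array the same distribution of values. The 6 measured adipocyte markers were bright on all 10 arrays. Their summed level, made up mostly of Fabp4, Adipoq and Lpl, was 28037 to 33615 on the replicate 1 arrays and 24902 to 33611 on the others. These genes lie near the top of that distribution, so the scaling itself limits how far their sum can differ between arrays. Lipe (8.22 to 11.31) and Cidec (9.62 to 12.46) varied more between arrays, as log2 levels, than that sum shows. The 8 preadipocyte and fibroblast markers summed to 4906 to 9651 on the replicate 1 arrays and 10104 to 23140 on the others, with Cd34 at the floor on every array. Col3a1 and Col1a1 had the highest mean levels among them, so they weigh most in this sum. Macrophage markers summed to 275 to 346 against 146 to 394, with Ptprc, Lyz2 and Itgam at the floor throughout. The brown adipocyte and muscle markers summed to 122 to 163 against 85.7 to 131, with Ucp1, Myog and Myh3 at the floor. The array of LA at 12 h, replicate 4, had a beta-actin 3′ to 5′ signal ratio of 5.67, against 1.45 to 2.60 on the other arrays. In such bulk RNA, fewer cells of a type and less RNA per cell cannot be told apart.

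Levels below are log2 of the quantile-normalized intensity, raised to a floor of 3.84 (an intensity of 14.3). Because probe sets differ in their response, no gene's level is set against another gene's. A difference in log2 level is called when limma's adjusted p over all 10916 tested genes is below 0.05. CLA differed from LA over both times in none of the 7 members, and in 0 of 10916 genes (0%). The lowest adjusted p of any gene was 0.305, and 996 genes (9.12%) had an unadjusted p below 0.05, none of them a member. None of the members was called at 8 h, at 12 h or in the interaction of treatment with time, where all genes again gave 0% (lowest adjusted p 0.200, 0.927 and 1, with 487, 187 and 116 genes at an unadjusted p below 0.05). The LA cultures themselves differed by replicate number: limma's F test over the 4 numbers, with time as a term, called 6 of the 7 members, against 50.1% of all genes.

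**Figure D1:**
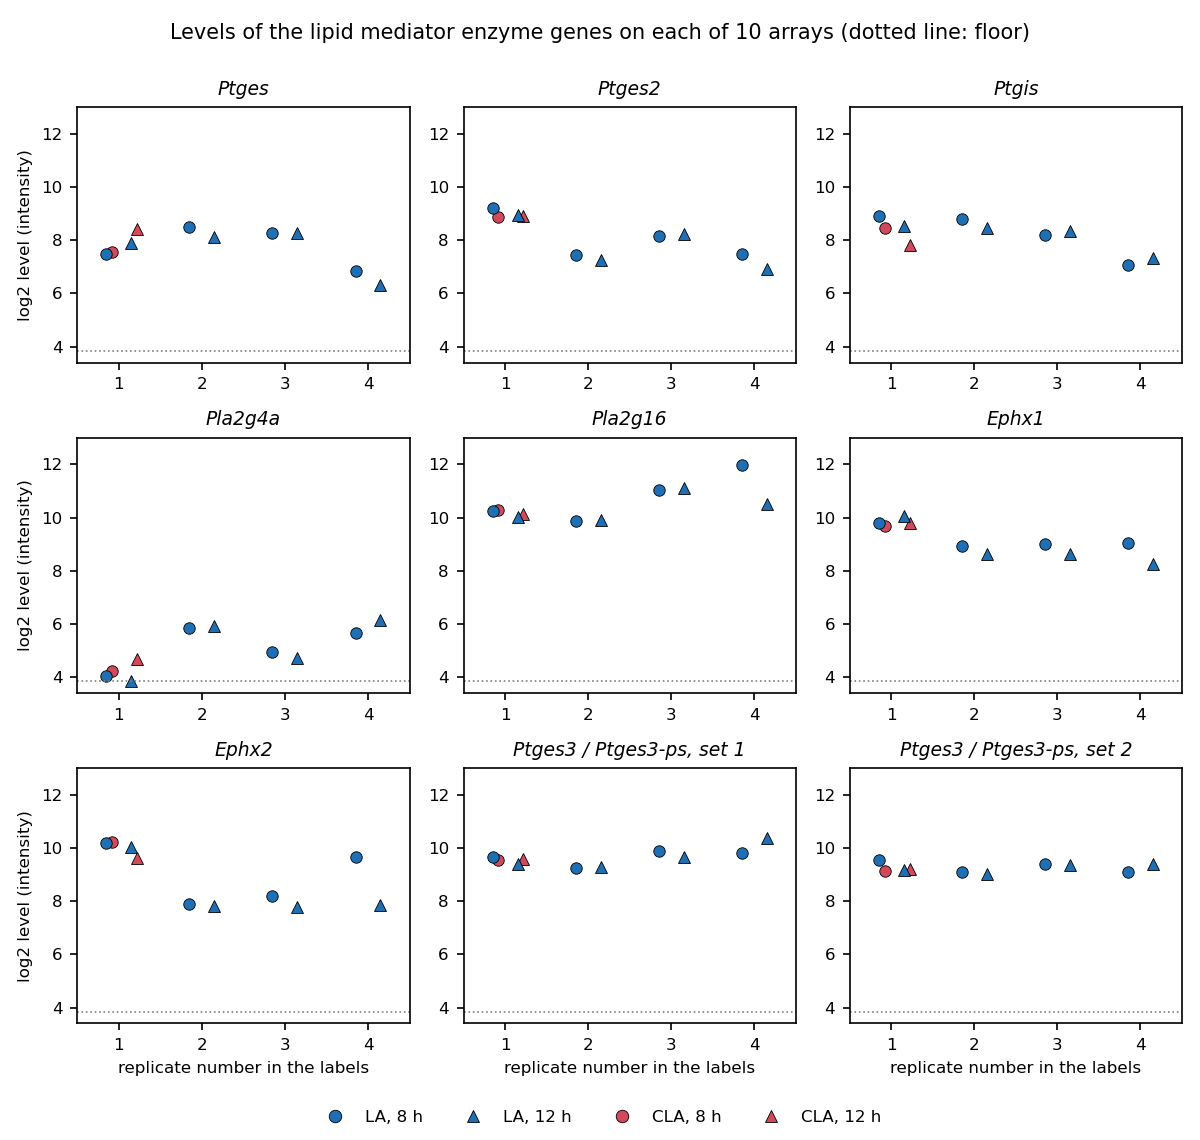
Each panel shows the log2 level (y axis, log2 intensity) of 1 gene, or of a probe set shared by Ptges3 and Ptges3-ps, on each of the 10 arrays against the replicate number of the labels (x axis). Circles are 8 h, triangles 12 h, blue LA and red CLA, and the dotted line is the floor of 3.84; Ephx2 of LA number 1 reads 10.17 and 10.04, while Ptges of LA number 4 reads 6.84 and 6.30.

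Pla2g4a, the cytosolic phospholipase A2 that prefers arachidonate, lay near the floor on some arrays (1448558_a_at). In LA at 8 h it read 4.05, 5.84, 4.95 and 5.66 in replicates 1 to 4 (mean 5.13 ± 0.81, SD, n = 4). In LA at 12 h it read 3.84 (the floor), 5.92, 4.71 and 6.16 (mean 5.16 ± 1.08, SD, n = 4). The CLA arrays read 4.24 at 8 h and 4.67 at 12 h. All 4 arrays numbered replicate 1, of either fatty acid, lay below all 6 others, which was true of 17.6% of genes. LA number 1 was lower than the mean of LA numbers 2 to 4 by a log2 difference of -1.60 (SE 0.23, limma adjusted p 0.00254), or 3.03-fold, a size that depends on the floor (-1.94 with the floor at 0.5 times and -0.73 at 2 times its value). Against all LA arrays CLA stood at -0.68 (SE 0.61, adjusted p 0.542), and against LA number 1 of the same time at 0.19 at 8 h and 0.84 at 12 h. The 2 LA number 1 arrays had deposited intensities of 10.1 and 6.80, against 26.5 to 87.0 on the 6 other LA arrays.

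All 4 replicate 1 arrays lay above the 6 others for 22.5% of all genes and below them for 17.6%. Of the 7 tested members, Ptges2 and Ephx1 were above and Pla2g4a below, and the promoter sequences of these 3 are shown. Each is the 250 bases before an annotated start from RefSeq (build GRCm38.p6), written 5′ to 3′ on the strand of the gene, and capitals mark matches to the 6 motifs searched on both strands. Pla2g4a has a further annotated start downstream that is not printed.
Pla2g4a (chr1:149961291-149961540, minus strand): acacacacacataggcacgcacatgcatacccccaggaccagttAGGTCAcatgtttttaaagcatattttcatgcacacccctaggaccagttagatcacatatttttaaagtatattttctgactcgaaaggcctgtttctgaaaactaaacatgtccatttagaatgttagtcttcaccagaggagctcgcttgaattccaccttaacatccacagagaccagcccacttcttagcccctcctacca
Ptges2 (chr2:32395640-32395889, plus strand): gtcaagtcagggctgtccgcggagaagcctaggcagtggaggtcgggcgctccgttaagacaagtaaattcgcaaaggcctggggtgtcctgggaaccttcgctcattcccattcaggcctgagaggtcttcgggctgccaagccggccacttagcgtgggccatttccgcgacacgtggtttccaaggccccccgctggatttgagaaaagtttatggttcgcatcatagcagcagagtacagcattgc
Ephx1 (chr1:181017570-181017819, minus strand): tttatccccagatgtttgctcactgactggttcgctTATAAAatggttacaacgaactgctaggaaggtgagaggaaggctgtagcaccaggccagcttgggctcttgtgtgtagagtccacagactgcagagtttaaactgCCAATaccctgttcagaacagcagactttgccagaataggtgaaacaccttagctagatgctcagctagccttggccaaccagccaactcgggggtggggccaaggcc

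The printed Pla2g4a window held AGGTCA, the core of nuclear receptor sites, found in 14.0% of 32851 promoter windows of this length. Ephx1 held TATAAA, the TATA box (12.4% of windows), and CCAAT (33.9%), and the Ptges2 window held none of the 6. The Pla2g4a window that is not printed held a match to TATAAA and none to AGGTCA. Across the 10 windows of 8 members, 5 held the GC box GGGCGG (32.7% of all windows). The overlapping windows of Pla2g16 are both among those 5 and share the same site. None of the 10 held TGATGNAA, an ATF4-type element (3.45%), or TGACNNNGC, the core of the antioxidant response element (10.2%). A match is a description of these letters only.

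Pla2g16, a phospholipase A that is prominent in white fat cells, had 2 probe sets that gave nearly the same picture. The brighter one (1445597_s_at) read 10.24, 9.88, 11.05 and 11.99 in LA replicates 1 to 4 at 8 h (mean 10.79 ± 0.94, SD, n = 4). At 12 h it read 10.01, 9.91, 11.11 and 10.5 (mean 10.38 ± 0.55, SD, n = 4), and the CLA arrays read 10.27 and 10.12 at 8 h and 12 h. Numbers 3 and 4 were high and numbers 1 and 2 low at both times, with a log2 difference between those pairs of numbers of 1.16 (2.23-fold), or 1.32 for the other probe set. Number 2 alone had both of its arrays below the 6 other LA arrays (8.17% of genes). This was the one tested member for which limma's F test over replicate numbers did not pass (adjusted p 0.0524). The highest array, LA at 8 h replicate 4, was 2.80-fold above the 12 h array of the same number, and 3.19-fold for the other probe set (1451611_at). Number 1 stood at -0.62 against numbers 2 to 4 (limma adjusted p 0.139), a difference that passed on the deposited scaling (-1.08, 0.0111) and without LA replicate 4 of 8 h (-0.38, 0.0219) or of 12 h (-0.86, 0.00300). CLA stood at -0.39 against all LA arrays (SE 0.48, adjusted p 0.636), and at 0.035 and 0.11 against LA number 1 at 8 h and 12 h. The 3 genes whose levels followed Pla2g16 most closely over the 10 arrays were Slc35a5 (Pearson r 0.970), Ostm1 (0.950) and Dnajb9 (0.950). Such likeness was computed for 3 members taken by mean level among those tested (Pla2g16, Ephx1 and Ephx2), over arrays that share replicate numbers and differ in overall brightness, and is a description only.

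The cyclooxygenases gave little to read. Ptgs1, the constitutive enzyme, has no probe set under its symbol in the annotation used and is not analysed here. Ptgs2, the inducible enzyme, had 2 probe sets whose deposited intensities ran from -3.13 to 16.0 over the 10 arrays. Probe set 1417262_at lay at the floor on all 10 arrays, and 1417263_at on 9, with LA at 8 h replicate 1 at 3.84, indistinguishable from it. Ptgs2 was left out of the tests as too dim, and no difference in either direction was measurable at this signal. The highest intensity, 16.0, belonged to LA at 8 h replicate 2, and the CLA arrays read 6.82 and 10.3 on the same probe set.

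Ptges, the inducible membrane-bound prostaglandin E synthase, was covered by 3 probe sets. The brightest (1449450_at) read 7.49, 8.50, 8.29 and 6.84 in LA replicates 1 to 4 at 8 h (mean 7.78 ± 0.76, SD, n = 4). At 12 h it read 7.91, 8.11, 8.28 and 6.30 (mean 7.65 ± 0.91, SD, n = 4), and the CLA arrays read 7.55 at 8 h and 8.44 at 12 h. Number 4 was low: both of its arrays lay below the 6 other LA arrays for all 3 probe sets, which held for 10.1% of tested genes. Its mean was 2.87-fold below that of numbers 1 to 3 on the brightest probe set and 2.22-fold and 3.41-fold below on 1439747_at and 1449449_at. The replicate numbers differed by limma's F test (adjusted p 0.00857), while number 1 lay at -0.019 (SE 0.21, adjusted p 0.945) against numbers 2 to 4. The CLA array at 12 h lay above all 4 LA arrays of that time on 2 of the 3 probe sets, as 17.6% of tested genes did. Over both times CLA stood at 0.28 (SE 0.55, adjusted p 0.764) against LA, with -0.23 (SE 0.81) at 8 h and 0.79 (SE 0.81) at 12 h. Set against LA number 1 of the same time, CLA was at 0.064 at 8 h and 0.52 at 12 h. On 1439747_at it was at 0.31 and 0.68, and on 1449449_at at 0.059 and 0.19. The interaction with time and the 12 h difference with a replicate block, given below, take the LA change over time from all 4 numbers. On the brightest probe set that change was -0.13 over all 4 numbers and 0.42 in number 1.

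**Figure D2:**
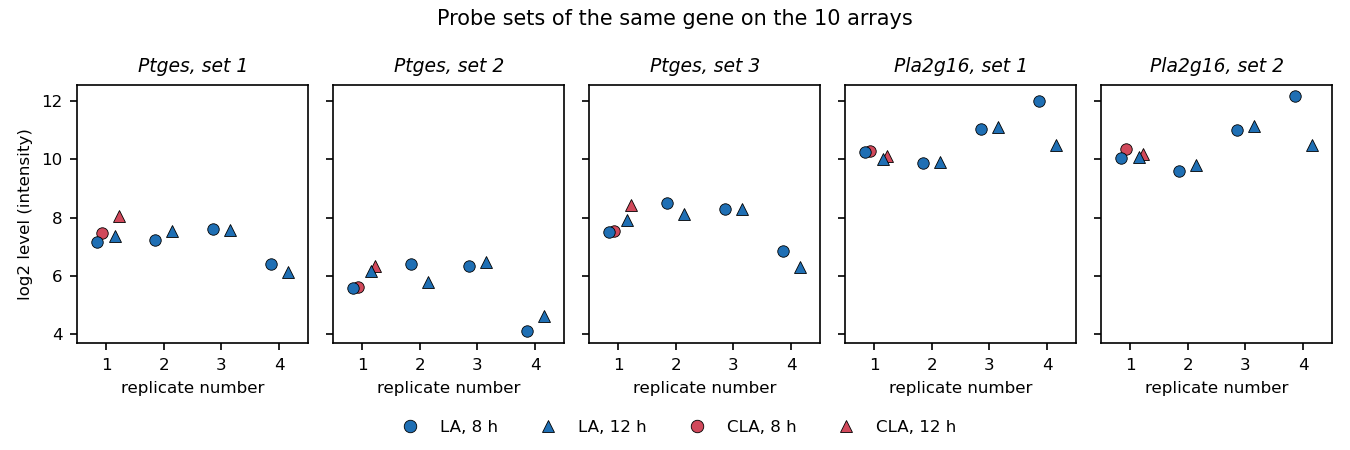
The log2 level (y axis, log2 intensity) of each probe set of Ptges (3 panels, in the order 1439747_at, 1449449_at, 1449450_at) and Pla2g16 (2 panels, 1445597_s_at and 1451611_at) on the 10 arrays, by replicate number (x axis). Symbols are as in the plot of levels; every Ptges probe set is lowest in LA number 4, and both Pla2g16 probe sets are highest in LA at 8 h replicate 4 (11.99 and 12.16).

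Ptges2, a membrane-associated prostaglandin E synthase, separated the replicate 1 arrays from the others (1417591_at). In LA at 8 h it read 9.21, 7.43, 8.17 and 7.47 in replicates 1 to 4 (mean 8.07 ± 0.83, SD, n = 4). In LA at 12 h it read 8.93, 7.27, 8.23 and 6.91 (mean 7.84 ± 0.92, SD, n = 4). The CLA arrays read 8.88 and 8.91. All 4 replicate 1 arrays were above all 6 others, as for 22.5% of genes, and number 3 lay between number 1 and the pair of numbers 2 and 4. LA number 1 was 2.81-fold above numbers 2 to 4 (log2 1.49, SE 0.16, limma adjusted p 0.00124). CLA stood 0.94 above all LA arrays (SE 0.55, adjusted p 0.457), but at -0.33 and -0.025 against LA number 1 at 8 h and 12 h. The same order was visible before normalization, with deposited intensities of 370 to 421 on the replicate 1 arrays and 143 to 322 on the 6 others.

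Ptges3, the cytosolic prostaglandin E synthase also known as the Hsp90 cochaperone p23, could not be separated from Ptges3-ps, since both of its probe sets (1417998_at and 1460221_at) are annotated to both symbols. On 1417998_at the LA arrays ran from 9.26 to 10.37 and the CLA arrays read 9.55 and 9.58. On 1460221_at the LA arrays ran from 9.03 to 9.56 and the CLA arrays read 9.14 and 9.19, so CLA lay within LA on both. In a fit of 27023 probe sets, CLA stood at -0.10 for each (SE 0.29 and 0.21), and the replicate numbers gave adjusted p of 0.192 and 0.495, where 22.1% of probe sets were called. Number 2 had the lowest LA arrays on both probe sets.

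Ptgis, the prostacyclin synthase, read 8.93, 8.80, 8.21 and 7.08 in LA replicates 1 to 4 at 8 h (1448816_at, mean 8.25 ± 0.84, SD, n = 4). At 12 h it read 8.53, 8.48, 8.34 and 7.32 (mean 8.17 ± 0.57, SD, n = 4), and the CLA arrays read 8.46 and 7.82 at 8 h and 12 h. As for Ptges, both arrays of number 4 lay below the 6 other LA arrays, 2.55-fold below the mean of numbers 1 to 3. Number 1 was higher than numbers 2 to 4 by 0.69 (SE 0.17, limma adjusted p 0.0162), a call that was lost on the deposited scaling (0.022, adjusted p 0.961) and without LA replicate 1 of 8 h (0.49, 0.182), LA replicate 1 of 12 h (0.90, 0.0676) or LA replicate 2 of 12 h (0.64, 0.0547). Both CLA arrays lay below the LA number 1 array of their own time, by log2 differences of -0.47 at 8 h and -0.71 at 12 h, but within the range of the 4 LA arrays. With the replicate number as a block, CLA stood at -0.59 over both times (95% interval -1.13 to -0.054), the 1 member of 7 whose interval left out 0. Its unadjusted p was 0.0345, a level that 4.53% of genes passed, and its limma adjusted p was 1. Without the block CLA stood at -0.069 (SE 0.47, adjusted p 0.933).

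Ephx1, the microsomal epoxide hydrolase, had its 4 replicate 1 arrays apart from the others after normalization (1422438_at). In LA at 8 h it read 9.785, 8.928, 9.002 and 9.024 in replicates 1 to 4 (mean 9.18 ± 0.40, SD, n = 4). In LA at 12 h it read 10.04, 8.62, 8.62 and 8.26 (mean 8.89 ± 0.79, SD, n = 4), and the CLA arrays read 9.70 and 9.80. All 4 replicate 1 arrays stood above all 6 others, as for 22.5% of genes. LA number 1 was 2.25-fold above numbers 2 to 4 (log2 1.17, SE 0.20, limma adjusted p 0.00461). On the deposited intensities the separation was absent at 8 h, where number 1 read 567 and numbers 2 to 4 read 516, 572 and 705. It was present at 12 h, at 919 against 355 to 487. The difference of LA number 1 from numbers 2 to 4, fitted over both times on the deposited scaling, was 0.56 (limma adjusted p 0.171). On the quantile-normalized values it was 0.80 without LA replicate 1 of 12 h, which leaves 1 LA array of number 1. CLA stood 0.71 above all LA arrays (SE 0.41, adjusted p 0.457), and at -0.090 and -0.24 against LA number 1 at 8 h and 12 h. The genes most like Ephx1 over the 10 arrays were Ppt2 (r 0.979), Heatr6 (0.979) and Nfe2l1 (0.975).

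Ephx2, the soluble epoxide hydrolase that acts on fatty acid epoxides, had the largest contrast between numbers among the tested members (1448499_a_at). In LA at 8 h it read 10.17, 7.90, 8.20 and 9.66 in replicates 1 to 4 (mean 8.98 ± 1.10, SD, n = 4). In LA at 12 h it read 10.04, 7.80, 7.78 and 7.84 (mean 8.37 ± 1.11, SD, n = 4), and the CLA arrays read 10.21 and 9.64. LA number 1 lay above the 6 other LA arrays, as for 29.9% of genes, though the LA array at 8 h of number 4 was close, and just above the CLA array at 12 h. The log2 difference of number 1 from numbers 2 to 4 was 1.91 (SE 0.34, limma adjusted p 0.00537), or 3.75-fold. It was 2.23 (adjusted p 0.0845) without LA replicate 1 of 8 h and 1.59 (0.144) without LA replicate 1 of 12 h. The CLA array at 8 h lay above all 4 LA arrays, by 0.039 over the highest, as 25.1% of genes did. Over both times CLA stood at 1.25 (SE 0.66, adjusted p 0.457), the largest difference among the members, and at 0.039 and -0.40 against LA number 1 at 8 h and 12 h. The genes most like Ephx2 over the 10 arrays were Cidea (r 0.988), Trarg1 (0.985) and 2310039H08Rik (0.983).

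Read together for CLA against LA, 4 of the 7 tested members stood above LA (Ptges, Ptges2, Ephx1 and Ephx2) and 3 below, with a median of 0.28 beside 0.15 for all genes. With the replicate number as a block, which leans on the comparison with the LA arrays numbered 1, 3 members stood above LA and 4 below, with a median of -0.16 beside 0 for all genes. The sign changed between these fits for Ptges2 (0.94 to -0.18), Ephx1 (0.71 to -0.16), Ephx2 (1.25 to -0.18), Pla2g4a (-0.68 to 0.51) and Pla2g16 (-0.39 to 0.072). The 95% interval with the block was -0.63 to 0.28 for Ptges2 and -0.72 to 0.39 for Ephx1. It was wider for Ephx2, at -1.02 to 0.66, for Pla2g4a, at -0.16 to 1.19, and for Pla2g16, at -0.70 to 0.85. Ptges kept its value (0.29, interval -0.45 to 1.03). No member was called with the block in any of the 4 CLA comparisons, nor any other gene (0% of 10916, with 495, 648, 635 and 728 genes at an unadjusted p below 0.05 for both times, 8 h, 12 h and the interaction). The interaction of treatment with time was 1.01 for Ptges (SE 1.14, adjusted p 1), or SE 0.41 and adjusted p 0.740 with the block. In the fit with the block, 2 members had an unadjusted p below 0.05 at 12 h, where 5.82% of genes did: Ptgis at -0.86 (p 0.0171) and Ptges at 0.80 (p 0.0496), both with a limma adjusted p of 0.844. Ptges alone did so in the interaction (p 0.0465, 6.67% of genes).

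**Figure D3:**
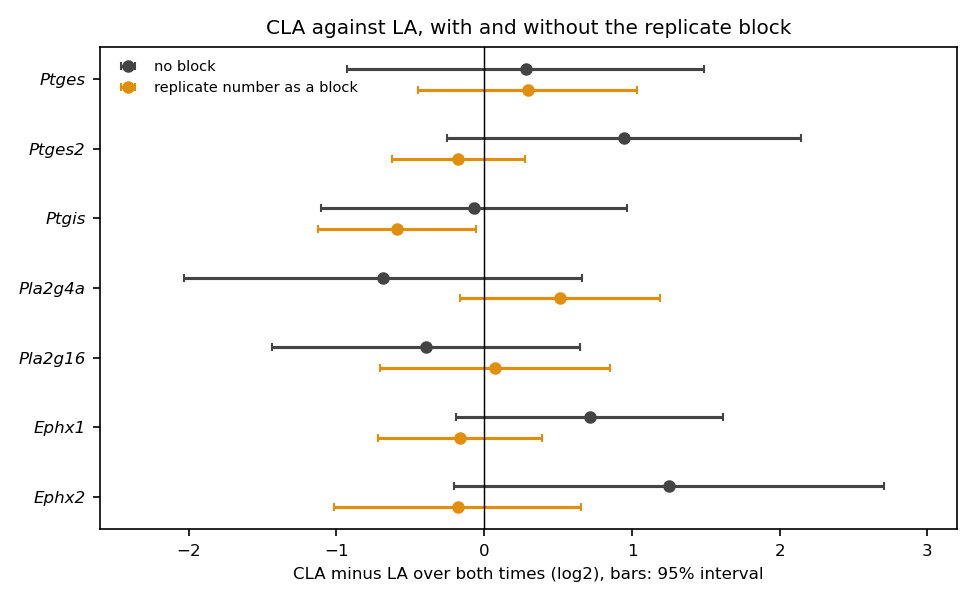
The log2 difference of CLA from LA over both times (x axis) with its 95% interval for the 7 tested members (y axis), fitted without a block (grey) and with the replicate number as a block (orange). Ptges2, Ephx1 and Ephx2 lie at 0.94, 0.71 and 1.25 without the block and at -0.18, -0.16 and -0.18 with it, and Ptgis is the 1 gene whose interval with the block does not reach 0.

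Between LA replicate numbers, limma called 5 of 7 members in the contrast of number 1 with numbers 2 to 4, beside 53.1% of all genes, so the share of members is read as near the background. Ptges2, Ptgis, Ephx1 and Ephx2 were higher in number 1, 4 of 7 where 29.6% of genes were, and Pla2g4a was lower, 1 of 7 where 23.5% were. The split over all genes followed the scaling: 3.44% were higher and 40.1% lower on the deposited scaling, and 41.7% higher and 18.5% lower with median centring. Ptges2, Ephx2 and Pla2g4a were called in the same direction under all 3 scalings. This contrast was chosen with the separation of number 1 already known, and the 2 arrays of a number may be related. With the mean of each number taken as 1 unit, Ephx1 alone among the members passed (adjusted p 0.0486, 8.79% of genes called). The others then gave 0.160 for Ptges2, 0.0999 for Ephx2, 0.170 for Pla2g4a and 0.514 for Ptgis. The count of members was 3 without LA replicate 1 of 8 h and 1 without LA replicate 1 of 12 h, where 20.2% and 24.7% of all genes were called. The median of all tested genes stood at 0.18 in this contrast, -0.53 on the deposited scaling and 0.51 with median centring. Relative to that median, Ptges2 lay at 1.31, or 1.33 on the deposited scaling, Ephx1 at 0.99 or 1.10, Ephx2 at 1.72 or 1.84, Ptgis at 0.51 or 0.56 and Ptges at -0.20 or -0.27. Pla2g4a lay at -1.78 or -1.46 and Pla2g16 at -0.80 or -0.55. Median centring gives the same relative values as the deposited scaling by construction, so it adds nothing here. Preadipocyte and fibroblast markers moved with the same contrast: all 7 tested were below 0 with a median of -1.42 (5 of 7 below 0 with median centring), and 4 passed the test. Col3a1 (-0.48) and Col1a1 (-0.45) did not pass, and stood at 0.41 and 0.17 with median centring. Of 6 adipocyte markers Lipe passed (1.67, limma adjusted p 0.00725), of 4 tested macrophage markers Adgre1 (1.94, 0.00119), and of 2 tested brown adipocyte and muscle markers Cidea (1.94, 0.0123), all higher in number 1 under all 3 scalings. The adipocyte markers Pparg (-0.38) and Lpl (-0.48) and the macrophage marker Csf1r (-0.24) stood below 0, and the rest of these groups above 0, none of them passing. On the deposited scaling Pparg (-0.94, limma adjusted p 0.0197) and Csf1r (-1.18, 0.0114) were called lower, and 4 of the 6 adipocyte markers stood below 0. With median centring all 6 adipocyte markers stood above 0, with a median of 1.01. Of these 6, Adipoq, Fabp4 and Cidec were then called higher beside Lipe. Ckm, of the brown adipocyte and muscle markers, was called higher there too (1.06, limma adjusted p 0.0167). The direction of the adipocyte markers other than Lipe and Cidec therefore depended on the scaling. The lower brightness of the replicate 1 arrays moved with this contrast as well. The part of that brightness, or of any of these markers, in the members' differences was not tested.

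**Figure D4:**
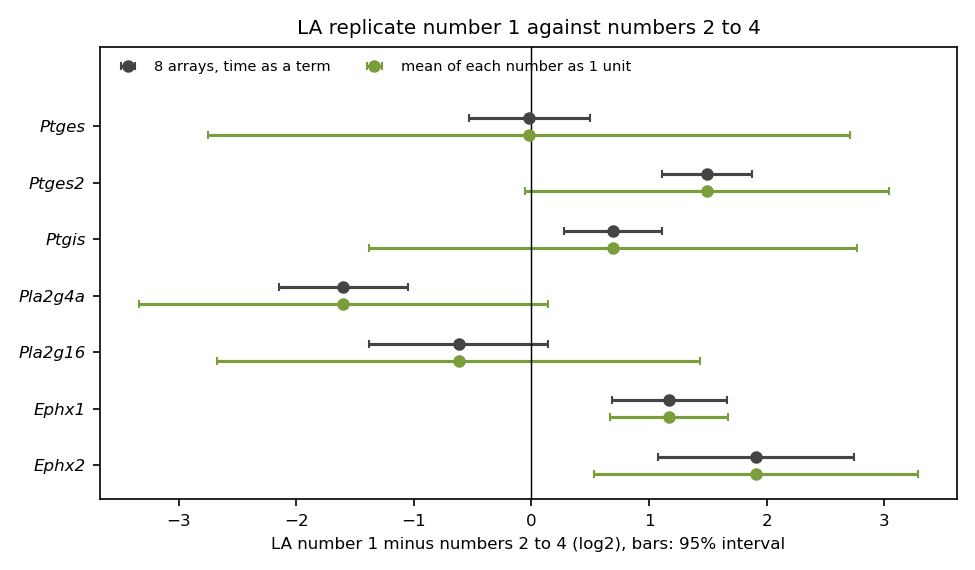
The log2 difference of LA replicate number 1 from numbers 2 to 4 (x axis) with its 95% interval for the 7 tested members (y axis), from the 8 LA arrays with time as a term (grey) and with the mean of each number as 1 unit (green). Ephx1 lies at 1.17 with intervals that leave out 0 in both, and the interval of Ptges is centred near 0 at -0.019.

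The F test over the 4 LA numbers gave limma adjusted p of 0.00437 for Ptges2, 0.00690 for Pla2g4a, 0.00705 for Ptgis, 0.0178 for Ephx2 and 0.0193 for Ephx1, beside that of Ptges. The count of 6 members became 0 without LA replicate 1 of 8 h and 1 without LA replicate 1 of 12 h, where the share of all genes fell from 50.1% to 3.72% and 11.9%. Number accounted for most of the spread of the LA arrays in each tested member, from 70.8% for Pla2g16 to 96.7% for Pla2g4a, beside a median of 82.5% over all genes. Time accounted for 0.033% in Pla2g4a to 9.31% in Ephx2, beside 3.12%. Another pattern, picked out after the values were seen, was shared by 2 of the 7 tested members, Ptges and Ptgis. For these, both arrays of number 4 lay below the 6 other LA arrays, as for 10.1% of all genes. Number 4 also had the lowest LA mean for Ptges2 (7.19) and Ephx1 (8.64), though its arrays overlapped the others there. The 12 h array of that number has the actin ratio of 5.67. The 8 h array of number 4 has a ratio of 2.60, the next highest. The 8 h array of number 3, close behind at 2.58, read 8.29 for Ptges and 8.21 for Ptgis, above number 4 (6.84 and 7.08). The part of these ratios in the low values of Ptges and Ptgis was not tested.

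From 8 h to 12 h in LA, no member changed by limma's test, nor did any gene (0% of 10916, 26 genes at an unadjusted p below 0.05, lowest adjusted p 1). The differences ran from -0.62 for Ephx2 to 0.030 for Pla2g4a (SE 0.39 to 0.64, adjusted p 1 for each), and 6 of 7 were below 0, with a median of -0.23 beside -0.0073 for all genes. With the replicate number as a block their adjusted p ran from 0.791 to 0.971. Ptges is counted below 0 by its brightest probe set (-0.13), while 1439747_at and 1449449_at stood at 0.052 and 0.15. Ephx2 was lower at 12 h in 4 of 4 replicate numbers, as 6.43% of genes were, by -0.14, -0.092, -0.42 and -1.81. Number 4 gave the largest step for both Ephx2 (3.52-fold lower at 12 h) and Pla2g16 (2.80-fold lower). Without LA replicate 4 of 8 h, the highest LA array of Pla2g16, the difference over all numbers was -0.0088 for Pla2g16 and -0.39 for Ephx2. Without LA replicate 4 of 12 h, the array with the actin ratio of 5.67 and a Gapdh 3′ to 5′ ratio of 1.42 (0.810 to 0.919 on the others), it was -0.45 and -0.44. For Ephx2 it also came to -0.22 without LA replicate 1 of 8 h and -1.17 without that of 12 h.

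**Figure D5:**
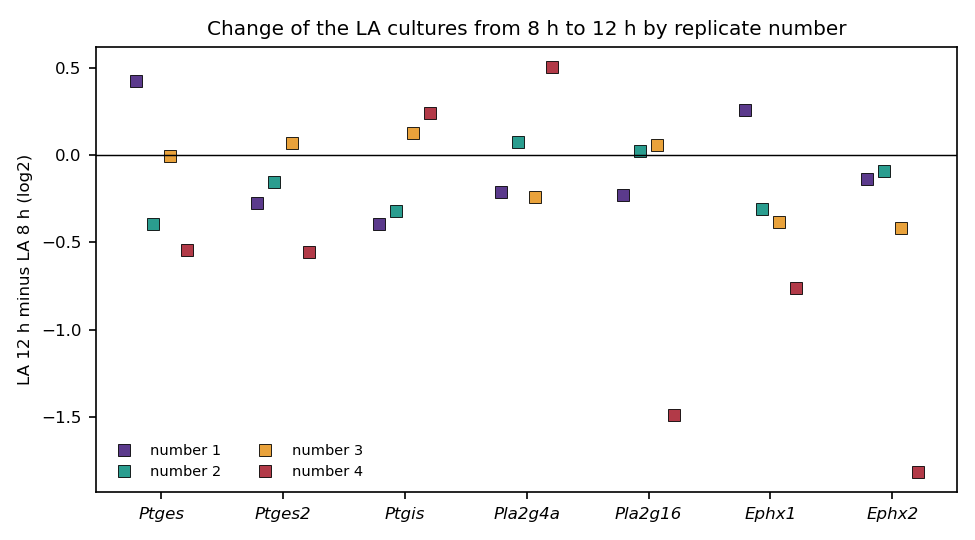
The log2 change from 8 h to 12 h in LA cultures (y axis) for each tested member (x axis), with 1 square per replicate number. Most squares lie within 0.6 of 0, while number 4 lies at -1.49 for Pla2g16 and -1.81 for Ephx2.

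The authors' deposited table holds a single ratio for each probe set, 8 h and 12 h combined. Its direction is not stated and was read from its correlation with the CLA minus LA differences (r = 0.914 across tested genes, which are not independent replicates). In the authors' deposited table the ratio was 2.02 for Ephx2 (p 0.118), 1.85 for Ptges2 (p 0.0669), 1.66 for Ephx1 (p 0.0891) and 0.375 for Pla2g4a (p 0.0549). The authors' deposited table put Ptgis at 0.901, the Pla2g16 probe sets at 0.779 and 0.759, and the Ptges probe sets at 1.01, 1.63 and 1.26. No member probe set had a p below 0.05 in the authors' deposited table, where 14.3% of 45037 probe sets did.

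The other genes of these pathways were listed as 7 groups and are described by counts. None of their tested genes was called for CLA against LA, and those named are the 3 of a group with the highest mean level. In LA number 1 against numbers 2 to 4, 17 of the 51 tested genes of the 7 groups were higher and 7 lower, beside 29.6% and 23.5% of all genes. On the deposited scaling these counts were 6 and 14 of 53, and with median centring 28 and 5 of 53, so the directions below depend on the scaling. With the mean of each number as 1 unit, where 8.79% of all genes were called, 4 of the 51 passed, all higher: Cyp2j9, Cyp2u1, Pla2g2d and Mboat2, named after their values were seen. Of 12 other prostanoid synthases and reductases, 7 were tested and 2 were higher in LA number 1, with a CLA median of 0.57 (0.062 with the block). Cbr3, a carbonyl reductase, was 1.39 higher in number 1 (limma adjusted p 0.00187), while Akr1b8 and Cbr1, of the aldo-keto and carbonyl reductases, stood at 0.20 (0.278) and 0.57 (0.0822). Of 7 genes of prostaglandin breakdown and transport, 5 were tested, 1 was higher and 2 lower in number 1. Zadh2, -0.68 (0.00896), and Ptgr1, -0.78 (0.0258), both prostaglandin reductases, were lower, and Ptgr2 stood at -0.51 (0.0764). Of 10 prostanoid receptor genes only 3 were bright enough to test. Ptgfrn, a regulator of the prostaglandin F receptor, was lower in number 1 (-0.70, adjusted p 0.0393), and the receptors Ptgfr (-0.55, 0.133) and Ptger4 (-0.36, 0.435) did not pass.

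Of 19 lipoxygenase and leukotriene genes, 8 were tested and 3 were higher in LA number 1, all 8 standing above 0 with a median of 0.79 beside 0.18 for all genes; on the deposited scaling 5 stood above 0 and none was called. Dpep1, a dipeptidase that cleaves leukotriene D4, was 0.82 higher (limma adjusted p 0.0152), while Mgst3 (0.31, 0.189) and the leukotriene C4 synthase Ltc4s (0.84, 0.213) did not pass. Of 24 cytochrome P450 and other epoxide genes, 9 were tested, 2 were higher and 1 was lower in number 1. Cyp1b1 was lower by a log2 difference of -1.69 (0.00337) and Cyp2c38 higher by 2.05 (0.00447), while Cyp2c55 stood at -0.74 (0.133). Of 22 genes listed as other phospholipases A2, 9 were tested, 5 were higher and 2 lower in number 1. The list is wider than that enzyme family: Abhd4, and Plaa, 1 of the 2 lower, are not classed as phospholipases A2. Pla2g12a, a secreted phospholipase, stood at 1.45 (0.00114), Abhd4 at 0.69 (0.0101) and Pnpla8, a calcium-independent phospholipase, at -1.72 (0.00231). Of 12 genes of reacylation and activation, which return fatty acids to phospholipid, 10 were tested, 4 were higher and 1 lower in number 1. Agpat3, an acyltransferase, was 1.17 higher (0.0127) and Aacs, the acetoacetyl-CoA synthetase, 2.26 higher (0.00467; it acts on acetoacetate), while Lpcat3, which places arachidonate in phospholipid, stood at 0.67 (0.0697).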

How the data were processed

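Total RNA was labelled with biotin from 15 ug per sample and read on Affymetrix arrays, per the labels' protocols. The authors deposited a table of linear probe set intensity. A background had been subtracted, since 22.5% of the values do not exceed 0, and the software and scaling are not given in the sources used here. The authors also deposited a table of pooled ratio values, 1 for each probe set, with log10 ratio, log10 error and p-value; how arrays were pooled is not given in the sources used here.

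Of 45101 probe sets, 64 controls were left out. Symbols came from the platform annotation, 34741 of them updated through Entrez identifiers; 34945 probe sets had 1 symbol, 932 several and 9160 none. Intensities were quantile normalized, raised to a floor (the size of the 2nd percentile, 14.3) and put on the log2 scale. The brightest probe set stood for each of 18193 genes, and the dimmest 40% (7277) were left out.

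Fits used limma 3.58.1 in R 4.3.3 with moderated, trended variances and Benjamini-Hochberg adjustment over 10916 genes (two-sided), and were checked on simulated data. Treatment and time were additive terms for CLA against LA over both times. For each time alone, the interaction and LA over time, 4 group means were fitted, and the spread of LA had to serve for the lone CLA arrays. LA replicate numbers were fitted with time on the 8 LA arrays. Few arrays limit the precision: over genes, the 95% interval of CLA against LA reached a median of 0.89 to either side, or 0.65 with the block. The labels call the replicates biological without saying whether cultures were independent, so p-values measure only the spread between these samples.

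Deviations from the time means correlated between the 8 h and 12 h LA arrays of numbers 1 to 4 at 0.855, 0.779, 0.503 and 0.553, so the numbers were used as a pairing in a further fit (replicate block). Other alternatives were the deposited scaling, centring on the median of the brighter probe sets, floors at 0.5 and 2 times the value, no filter, every probe set, no variance trend, each array left out, and each number as 1 unit. The members, gene lists and contrasts were chosen with earlier results of these data known. Named are all members, the 3 tested genes of each pathway group with the highest mean level, and the 3 genes most correlated with each of the 3 tested members with the highest mean level. Sequences are RefSeq's (GRCm38.p6), with windows for 8 members. Ptgs1 was not analysed for want of a named probe set. Figures were drawn with matplotlib 3.10.9.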

Additional observations from a re-analysis of the deposited data

Results flagged for a closer look

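In 24 groups of 4 LA arrays (each probe set and time), an array was set apart when its gap to the nearest other, divided by the range of the group, exceeded Dixon's critical value; chance does this in about 1 in 20 groups. The Ptges probe set 1439747_at had LA replicate 4 at 12 h at 6.13, against 7.36 to 7.56 in the other 3 (gap over range 0.864). Ptgis had the same array at 7.32, against 8.34 to 8.53 (0.841); its actin 3′ to 5′ ratio was 5.67, and the part of that in these values was not tested. Ephx1 had LA replicate 1 at 8 h at 9.78, against 8.93 to 9.02 (0.888). Ephx2 had LA replicate 1 at 12 h at 10.04, against 7.78 to 7.84 (0.974).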

How the results depend on the processing

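Counts of called genes moved with the floor, the filter and single arrays. For CLA against LA over both times, 0 genes became 28 with the floor at 2 times, 51 with no filter, 103 with every probe set and 0 to 23 with an array left out (23 without LA replicate 1 of 8 h). At 8 h the counts were 273, 549, 957 and 0 to 193 (193 without the same array), at 12 h 100, 362, 621 and 0 to 74, and for the interaction 278, 740, 1266 and 0 to 51. LA over time gave 1 with no filter, 1 with every probe set and 0 with any array left out. LA replicate numbers gave 2063 with no filter, 2214 with every probe set and 406 to 6539 with an array left out (406 and 1304 without LA replicate 1 of 8 h and 12 h, 2282 and 2671 without LA replicate 2 of 8 h and 12 h); number 1 gave 960 with number as 1 unit and 2201 to 6650. Members called became 1, 1 and 0 to 7 for the numbers, and 3 with no filter, 3 with every probe set, 1 with number as 1 unit and 1 to 6 with an array left out for number 1. With no filter and with every probe set, 11.3% of genes and 6.34% of probe sets were called for the numbers. For number 1 these shares were 21.6% and 15.6%. The cause of these moves was not tested.

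With the replicate block, CLA against LA changed sign for Ptges2 (-0.18), Pla2g4a (0.51), Pla2g16 (0.072), Ephx1 (-0.16) and Ephx2 (-0.18), and the block called no gene in any comparison. The sign also changed for Ptges on the deposited scaling (-0.034) and for Ptgis (0.23) and Pla2g16 (0.11) with median centring. With an array left out it ran from -0.23 to 0.79 for Ptges and -0.34 to 0.20 for Ptgis. For LA over time, Pla2g4a turned to -0.048 with median centring and -0.14 with the floor at 0.5 times. With an array left out it ran from -0.33 to 0.47, Ptges from -0.44 to 0.32, Ptges2 from -0.60 to 0.15 and Ptgis from -0.48 to 0.20. In number 1 against the others, Ptges was 0.24 with median centring and -0.39 to 0.35 with an array left out. Of the members' differences under the alternatives, the authors' deposited ratios aside, 313 kept direction and side of the threshold, 31 changed sign, 17 lost their call and 3 gained one. The fit of every probe set for Ptges3 and the fits of members and pathway groups with number as 1 unit were chosen after seeing the data. Ptgs2 was fitted with every probe set, where its values, at the floor on all arrays but 1, carry no difference to read.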
